A study of Caenorhabditis elegans with 2 samples.

Results

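FKH-6-GFP regions were examined at 9 genes of the somatic gonad in Caenorhabditis elegans, out of 19973 nuclear protein-coding genes. The genes, listed by name, were tra-1, ehn-3, hnd-1, pop-1, sys-1, ceh-22, lag-2, gon-1 and ckb-3. FKH-6 was measured by chromatin immunoprecipitation with sequencing (ChIP-seq) in strain OP78, genotype unc-119(ed3) III; wgIs78. These worms carry a transgene for FKH-6 with GFP-FLAG at its C-terminus, and whole hermaphrodite late embryos were taken 5.5 hours after egg bleaching. There was 1 group of 2 biological replicates, recovered with an antibody against GFP, and control libraries were not analysed here. The sample is the whole animal, in which the gonad precursors are few, and the lists hold no RNA with which the cells present could be checked. A region was counted at a gene when its summit, the base of highest signal, lay inside the gene or within 5 kb of its 5' end on either side.

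FKH-6 is a forkhead transcription factor needed for the somatic gonad to form in both sexes. The somatic gonad arises from a pair of precursor cells, and in the hermaphrodite their asymmetric divisions, directed by the TCF factor POP-1 and its beta-catenin coactivator SYS-1, set apart the distal tip cells. The homeobox factor CEH-22 acts in the same choice, and the tip cells then display the Notch ligand LAG-2 to the germ line and lead the growing gonad arms, a migration that requires the protease GON-1.

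Windows around some of the summits are shown first, as 101 bases of the plus strand in ce11, read from the RefSeq genome WBcel235. None is shown for pop-1, sys-1 or lag-2. At ckb-3, a choline kinase gene whose promoter is used to mark the somatic gonad, both regions of the authors' reproducible list had summits inside a non-coding RNA gene, srpr-1.2. They lie at chrIII:4369434-4369534 and chrIII:4369641-4369741. Capitals mark the bases of srpr-1.2, 67 in the first window and 101 in the second.
ckb-3 first: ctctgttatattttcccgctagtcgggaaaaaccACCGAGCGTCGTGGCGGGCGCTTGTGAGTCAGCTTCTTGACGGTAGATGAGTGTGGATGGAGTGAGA
ckb-3 second: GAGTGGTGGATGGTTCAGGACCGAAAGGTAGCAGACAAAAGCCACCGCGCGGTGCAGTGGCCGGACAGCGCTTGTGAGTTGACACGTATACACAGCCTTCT

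At tra-1 and ceh-22 the windows belong to regions outside the reproducible list that both replicates held. Both tra-1 windows are intronic, at chrIII:11185587-11185687 and chrIII:11186925-11187025, and capitals mark GAGAGA or its reverse complement TCTCTC, with 3 matches in each window, of which a pair overlap in the first. The ceh-22 window, chrV:10671653-10671753, is intergenic just before the gene, and capitals mark 2 copies of a GATA motif, A or T followed by GATA and then A or G. None of the windows shown for these genes or for ckb-3 held the forkhead motif, A or G, C or T, AAA, C or T, then A. The window of the lag-2 region that both replicates held is not shown, and it had 0 matches to any of these 3 motifs.
tra-1 first: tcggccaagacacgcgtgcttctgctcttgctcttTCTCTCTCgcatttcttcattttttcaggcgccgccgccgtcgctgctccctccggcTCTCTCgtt
tra-1 second: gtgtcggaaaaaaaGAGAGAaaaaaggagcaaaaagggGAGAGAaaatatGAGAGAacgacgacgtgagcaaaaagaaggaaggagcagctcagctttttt
ceh-22: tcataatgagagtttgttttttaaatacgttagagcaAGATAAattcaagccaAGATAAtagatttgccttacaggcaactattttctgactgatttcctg

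Reproducible FKH-6-GFP regions were counted at 2 of the 9 gonad genes, ckb-3 and sys-1, with 2 regions each. That is 22.2% of the genes (95% Wilson interval 6.32 to 54.7), against 8.16% of all nuclear protein-coding genes counted the same way. The interval covers counting error only and includes the share over all genes. All 4 regions lay nearer to the annotated start of another gene than to that of ckb-3 or sys-1. The other 7 genes had none, and their nearest reproducible summit lay between 30.5 kb from lag-2 and 132.5 kb from gon-1. In whole embryos, binding in few cells and weak binding in many cells cannot be told apart.

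The permissive pooled list, made by the authors from both replicates and holding background as well as peaks, had 41 of its 26164 regions at these genes. At least 1 such region was present at 8 of the 9, all but ehn-3, against 83.5% of all genes. The replicate 1 list had 28 of its 19624 regions at the genes and reached all 9, and the replicate 2 list had 38 of its 26209 and reached 8. The share of all genes reached was not counted for the replicate lists, so these 2 counts have no background beside them. The pooled regions at the gonad genes had a median signal of 34.4, ranging from 25.1 to 127, beside a median of 35.0 over the whole list. Signal is the authors' value for a region, its scale is unknown here, and ranks were taken from it only inside each list. Of the 41 regions, 20 were in the upper 50% of the pooled list and 6 in its upper 10%. By position, 23 were inside the gene, 14 upstream and 4 past its 3' end.

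**Figure D1:**
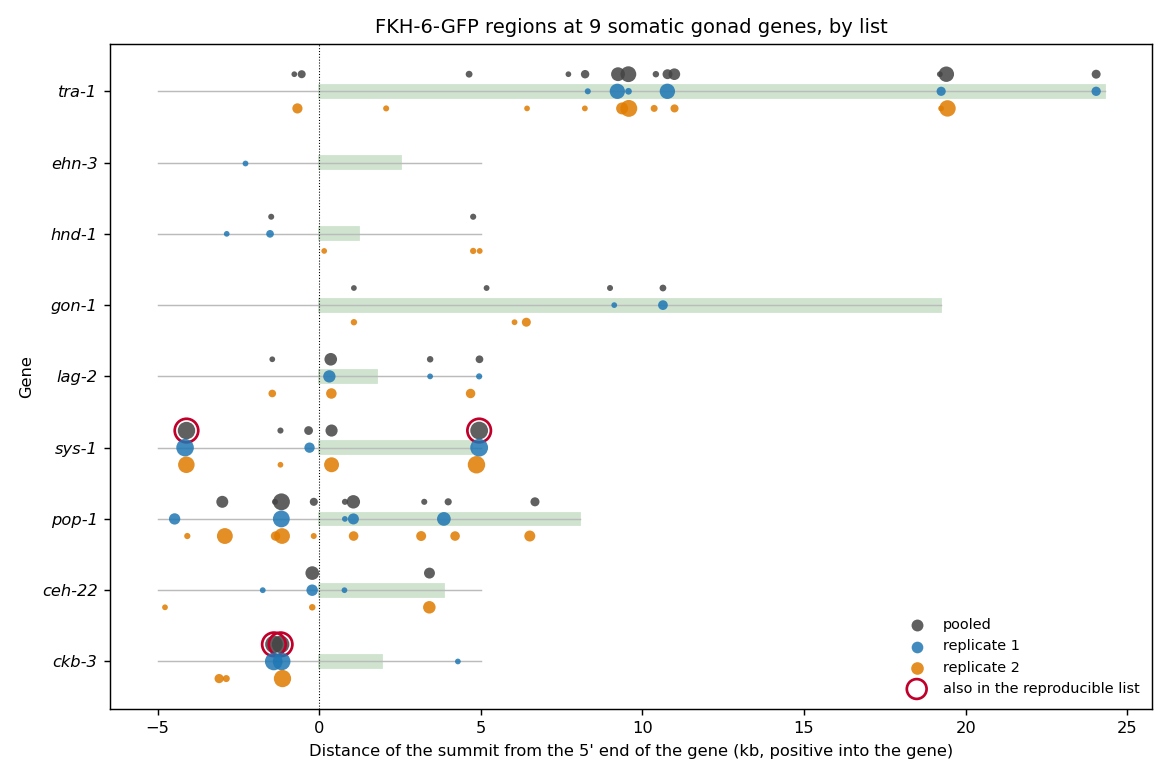
Each row is a gene, with distance of the summit from its 5' end in kb on the horizontal axis (positive into the gene), the gene body as a green bar and the rest of the 5 kb window as a line; dots are regions of the pooled list and of each replicate, and a larger dot ranks higher within its list. Rings mark the 4 pooled regions in the reproducible list, at sys-1 and ckb-3, while tra-1 and pop-1 carry the most pooled regions, 13 and 9.

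Among the pooled regions at these genes, 37 were outside the reproducible list, and both replicates had a summit within 100 bp of 7 of them. That share of 18.9% (95% Wilson interval 9.48 to 34.2) stood beside 24.3% for the 25395 nuclear pooled regions outside the reproducible list. The interval treats regions as independent, which they are not: 13 lay at tra-1 and 9 at pop-1, and some overlap. It is therefore a description only. In 23 cases 1 replicate held the region. In 7 cases, or 18.9%, neither did, against 16.6% of all 25395 such nuclear regions. The 7 shared regions lay at tra-1 with 3, pop-1 with 2, and lag-2 and ceh-22 with 1 each. In the pooled list their −log10 q-value, given by the authors, was 0.982, 0.136 and 0.032 at tra-1 and 1.845 and 0.469 at pop-1. It was 0.497 at ceh-22 and 0.369 at lag-2, so all 7 were below 2, the limit of the stricter alternative described below. A shared region was thus present at 4 of 9 gonad genes, against 43.1% of all genes. A shared region in the upper 10% of the pooled list was present at 2 of 9, tra-1 and pop-1, against 14.1% of all genes. Long genes gather more regions: of the 404 genes with windows of 20 kb or longer, the class of tra-1 and gon-1, 79.95% had a shared region outside the reproducible list, against 40.55% of genes with windows under 11 kb.

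**Figure D2:**
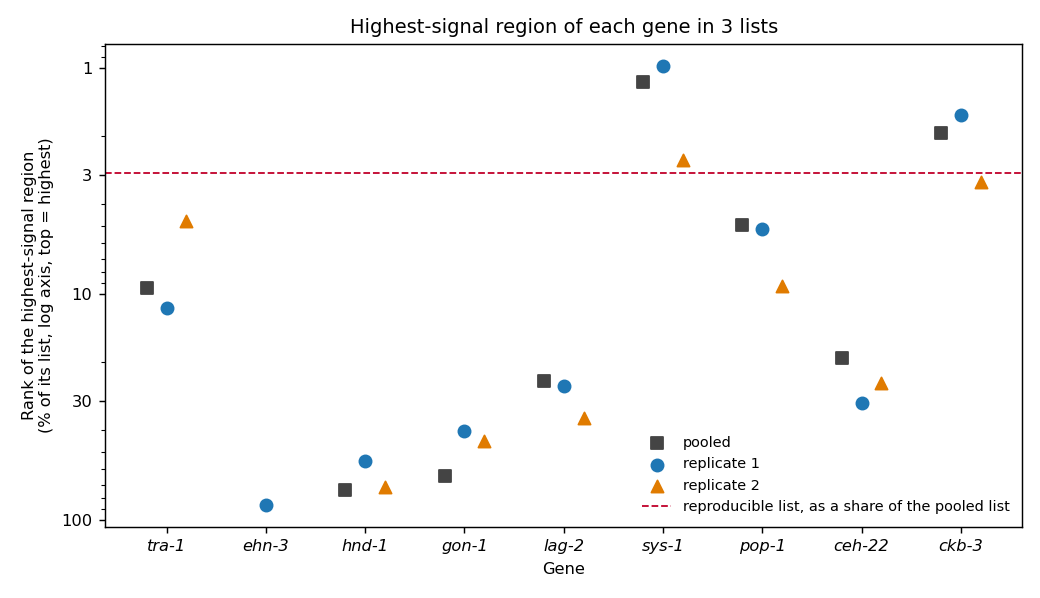
The rank of the highest-signal region of each gene is shown as a percent of its list on a log axis, with the highest rank uppermost, for the pooled list and each replicate; the dashed line is the size of the reproducible list as a share of the pooled list. The pooled squares of sys-1 and ckb-3, at 1.16% and 1.94%, lie above the line, as every region of the reproducible list must. Those of pop-1 and tra-1 follow at 4.95% and 9.44%, and ehn-3 has a point only in replicate 1.

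The sex determination gene tra-1 encodes a GLI-family zinc finger factor that directs female development in the soma and also acts in the early gonad. It lies on chromosome III, 11170890 to 11195201, on the minus strand (WBGene00006604), and had 13 pooled regions, 6 in replicate 1 and 10 in replicate 2. Its highest pooled region, in an intron 9564 bp from the 5' end, had a signal of 61.7 and rank 2471, or 9.44% of the list. Near that summit, at 11185637, replicate 1 had a signal of 19.04 and rank 12781, while replicate 2 had 44.3 and rank 1248. The replicates therefore placed this region far apart, in the lower 50% of the replicate 1 list and in the upper 10% of the replicate 2 list. The highest tra-1 region of replicate 1 was a different one, in an intron 10771 bp from the 5' end, with a signal of 32.0 and rank 2265. Replicate 2 had no summit within 100 bp of the pooled region there.

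The remaining shared regions of tra-1 were below the upper 10% of every list. The second intronic summit, at 11186975, ranked 12820 in the pooled list, 14970 in replicate 1 and 21979 in replicate 2. The coding-exon summit at 11176001 ranked 22933 in the pooled list, 8608 in replicate 1 and 25985 in replicate 2, the last of which is 99.15% of the way down that list. A neighbouring coding-exon region, with its summit at 11175800, ranked 2926 in the pooled list and 1770 in replicate 2, and replicate 1 had no summit within 100 bp. The summits at 11176001 and 11175800 were nearer to the start of Y47D3A.31, 18802 and 18601 bp away, than to the 5' end of tra-1. The nearest reproducible region to tra-1 was 41.7 kb upstream.

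The genes ehn-3 and hnd-1 encode factors of the gonad precursors, a zinc finger protein and a Hand-family basic helix-loop-helix protein, and both had few regions of low rank. At ehn-3 (WBGene00001223, chromosome IV, 5416699 to 5419222) the pooled and replicate 2 lists had 0 regions. Replicate 1 had 1, an intergenic summit 2307 bp upstream, with a signal of 17.03 and rank 16883, or 86.0% of the way down its list. At hnd-1 (WBGene00001981, chromosome X, 11684561 to 11685788) there were 2 pooled regions, with signals of 28.6 at 1485 bp upstream and 29.2 at 4763 bp past the 5' end. Replicate 1 held the first, with a signal of 20.2, and replicate 2 held the second, with 17.8. No hnd-1 region was held by both replicates, and the second was nearer to the start of C44C10.10, 990 bp away. Per kb of window, hnd-1 had 0.2 pooled regions, equal to the median over all genes.

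The TCF gene pop-1 had the highest density of the 9 genes, with 9 pooled regions in a window of 13.07 kb, or 0.689 per kb. Of all genes, 4.39% had as high a density or higher. The gene lies on chromosome I, 2822243 to 2830311, on the minus strand (WBGene00004077), and had 5 regions in replicate 1 and 9 in replicate 2. The highest pooled region spanned 2831249 to 2831708, with its summit 1168 bp upstream of pop-1 inside exons of the non-coding RNA genes W10C8.8 and W10C8.12. Its signal of 75.5 gave rank 1295, or 4.95% of the pooled list, below the lowest signal of the reproducible list, 89.1. Replicate 1 had 39.8 and rank 1012 there, and replicate 2 had 35.8 and rank 2599. Among the shared regions outside the reproducible list, this was the one in the upper 10% of all 3 lists.

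The second shared region of pop-1 lay in an intron 1056 bp from the 5' end, with pooled rank 5340, replicate 1 rank 6429 and replicate 2 rank 10755. The highest pop-1 region of replicate 2, 2919 bp upstream with a signal of 36.6 and rank 2423, had no counterpart in replicate 1. A further pooled region with a signal of 72.8 and rank 1451 lay 5402 bp upstream, just outside the window.

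At sys-1, the beta-catenin gene, both reproducible regions lay at the edges of the window and beside other genes. The gene is on chromosome I, 9980063 to 9984794, on the minus strand (WBGene00006379). The first region, 9979616 to 9980075, had its summit 4948 bp from the 5' end, past the 3' end of sys-1 and 184 bp from the start of eif-3.C, which encodes a subunit of a translation initiation factor. Its signal was 127 and its pooled rank 304, with a signal of 69.6 and rank 193 in replicate 1 and 54.5 and rank 672 in replicate 2. The second, 9988670 to 9989129, had its summit 4106 bp upstream of sys-1 and 137 bp from the start of the histone gene his-67, between it and the divergent histone gene his-68. Its signal was 95.8 and its pooled rank 635, with 52.8 and rank 400 in replicate 1 and 40.9 and rank 1670 in replicate 2. Both regions were thus found by both replicates, in the upper 10% of each replicate list. Their place in the upper 10% of the pooled list adds nothing, since the reproducible list holds the highest pooled signals. Within the reproducible list itself they ranked 304 and 635, or 39.6% and 82.8% of the way down.

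The 3 pooled regions with sys-1 as the nearest protein-coding start were weaker, and each was held by 1 replicate. A coding-exon summit 382 bp inside the gene had a pooled signal of 44.2 and rank 7036, and a signal of 32.7 and rank 3510 in replicate 2. A summit 329 bp upstream had a pooled signal of 35.99, and replicate 1 had 23.2 near it. A summit 1199 bp upstream had a pooled signal of 29.2, and replicate 2 had 15.6 there.

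The homeobox gene ceh-22 (WBGene00000445, chromosome V, 10671918 to 10675769) had a region just before its 5' end in both replicates. This summit, 215 bp upstream, had a pooled signal of 49.4 and rank 5065, or 19.4% of the list. Replicate 1 gave 24.5 and rank 5968, and replicate 2 gave 18.3 and rank 17764, so the region was in the upper 50% of the replicate 1 list and the lower 50% of the replicate 2 list. The other pooled region of ceh-22, in a coding exon 3411 bp from the 5' end, ranked 8717 and was held by replicate 2 only, with a signal of 27.0 and rank 6492.

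The Notch ligand gene lag-2 (WBGene00002246, chromosome V, 3188343 to 3190115) had 4 pooled regions, 3 in replicate 1 and 3 in replicate 2. The highest had its summit in a coding exon, 357 bp from the 5' end, with a signal of 45.7 and rank 6383. Replicate 1 gave 25.7 and rank 5048, and replicate 2 gave 23.7 and rank 9321, so it was in the upper 50% of all 3 lists. Its −log10 q-value was low, at 0.369 in the pooled list, 0.315 in replicate 1 and 0.261 in replicate 2. The reproducible summit nearest to lag-2 was 30.5 kb downstream, in an intron of apx-1, a gene for another Notch ligand, with a signal of 101 and pooled rank 549.

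The protease gene gon-1 (WBGene00001650, chromosome IV, 9934206 to 9953433), which encodes an ADAMTS-family matrix protease, had the lowest density after ehn-3. Its 24.23 kb window held 4 pooled regions, all intronic, with signals of 26.5 to 31.3, and 64.6% of all genes had as high a density or higher. The highest of them ranked 16859 in the pooled list, and replicate 1 had a signal of 22.4 and rank 7934 at the same base. That base was nearer to the start of spe-29 than to the 5' end of gon-1, the outermost of its 4 annotated starts. Nearer still was the start of the non-coding RNA gene T13H10.15, 1687 bp away. Replicate 2 had its highest gon-1 region elsewhere, 6408 bp from the 5' end, with a signal of 21.8 and rank 11808. No gon-1 region was held by both replicates.

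**Figure D3:**
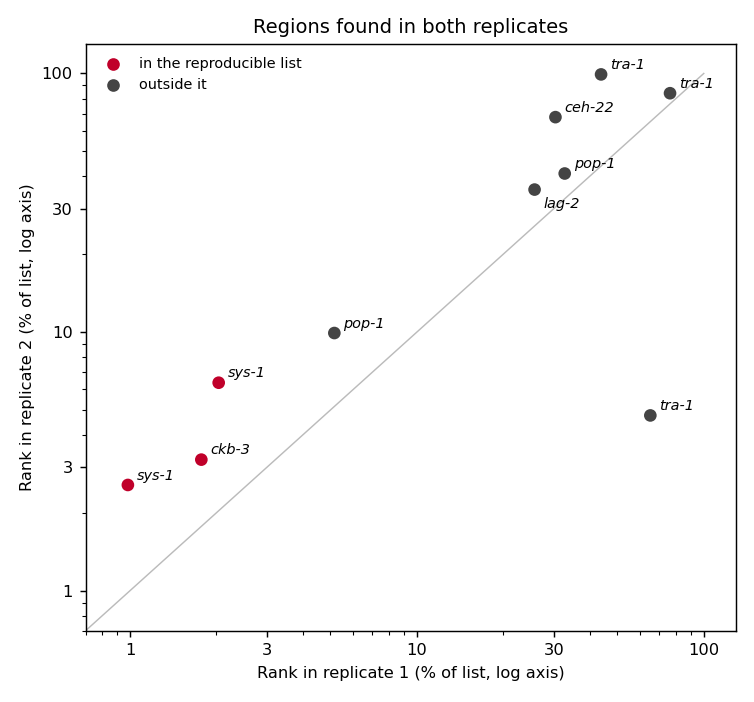
Each point is a pooled region at a gonad gene with a summit within 100 bp in both replicates, placed by its rank as a percent of the replicate 1 list (horizontal) and of the replicate 2 list (vertical), both on log axes, with the line of equal rank in grey. The 3 points in the reproducible list, 2 at sys-1 and 1 at ckb-3, lie nearest the lower left corner, followed by a pop-1 point at 5.16% and 9.92%, and a tra-1 point lies far below the line at 65.1% and 4.76%.

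Both reproducible regions upstream of ckb-3 are those whose windows are printed above. The gene (WBGene00000513) lies on chromosome III, 4370885 to 4372820, on the plus strand. The first region, 4369254 to 4369713, had its summit 1401 bp upstream, a signal of 102 and pooled rank 543. Replicate 1 gave 57.2 and rank 319 near it, and replicate 2 had no summit within 100 bp. The second, 4369461 to 4369920, had its summit 1194 bp upstream, a signal of 104 and rank 508, with 55.6 and rank 348 in replicate 1 and 50.3 and rank 842 in replicate 2. The intervals of the pair overlap, and the replicate 2 summit, at 4369749, lay inside the second interval and outside the first.

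The summits at ckb-3 were 16 and 223 bp from the start of srpr-1.2 (WBGene00045168, 4369468 to 4369766, plus strand), which lies within the gene ckb-2 (WBGene00000512, 4367949 to 4370160). The srpr genes form a family of 5 similar copies, and each copy had a reproducible summit within 200 bp. Of the 299 bases of srpr-1.2, 98.3% were identical in srpr-1.1, 94.3% in srpr-2.1, 93.98% in srpr-2.2 and 82.6% in srpr-3. The highest pooled signal was 133 at srpr-1.1, 104 at srpr-1.2, 132 at srpr-2.1, 224 at srpr-2.2 and 91.5 at srpr-3. The sources used here do not say how reads that match several copies were assigned, and how much of the signal at srpr-1.2 came from reads of the other copies was not tested. The srpr-1.1 region was also the first one outside the ckb-3 window on the downstream side, 7994 bp from the 5' end, and on the upstream side the first lay at 6853 bp with a signal of 28.9.

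**Figure D4:**
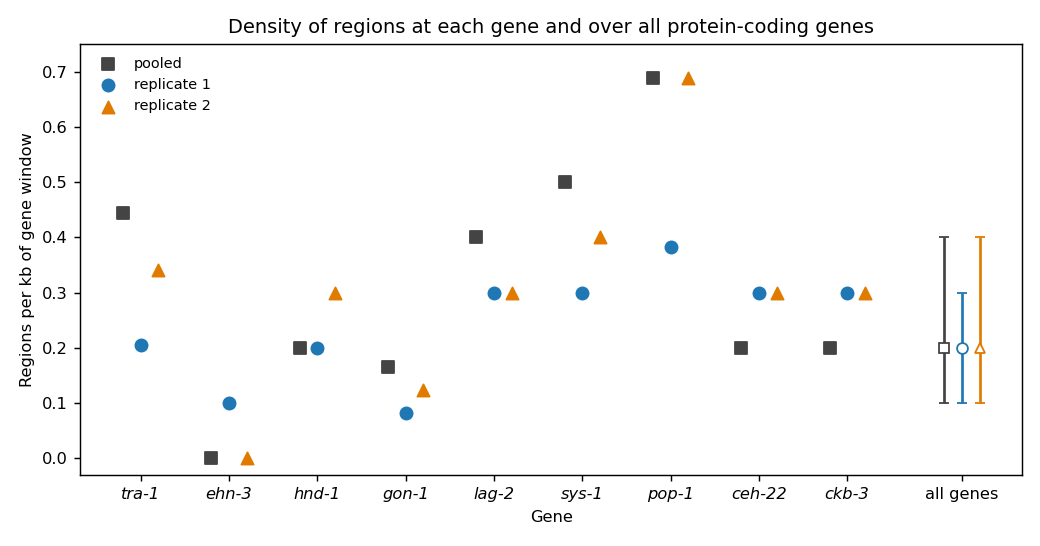
Regions per kb of gene window are shown for each gene in the pooled list and in each replicate, with the median and quartiles over all 19973 protein-coding genes at the right as open symbols and bars. In the pooled list pop-1, sys-1 and tra-1 lie above the upper quartile of 0.4, lag-2 lies at it, gon-1, hnd-1, ceh-22 and ckb-3 lie between the quartiles, and ehn-3 lies at 0.

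Taking the 9 windows as one stretch of 126.6 kb, the density was 0.324 regions per kb in the pooled list, 0.221 in replicate 1 and 0.300 in replicate 2. The mean over all genes was 0.260, 0.196 and 0.259 per kb in the same lists. By gene, the median was 0.2 per kb at the gonad genes and 0.2 over all genes in the pooled list, and 0.3 at the gonad genes and 0.2 over all genes in each replicate list. The higher pooled total came from pop-1, tra-1, sys-1 and lag-2, whose densities were 0.689, 0.444, 0.5 and 0.4 per kb.

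The 41 pooled summits at the gonad genes lay in introns in 16 cases, or 39.0%, against 28.1% of all nuclear pooled summits. Coding exons held 6, or 14.6%, against 27.1%, intergenic sequence held 13, or 31.7%, against 33.05%, and exons of non-coding genes held 5, or 12.2%, against 5.55%. A 3' UTR held 1, at tra-1, and 5' UTRs held 0. Some regions overlap and summits of a gene are not independent, so these shares are descriptions. The median GC content within 50 bp of the summit was 47.5% at the gonad genes, with a range of 19.8 to 66.3, and 42.6% over all nuclear pooled regions.

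Forkhead letters were searched within 50 bp of each summit on both strands, in the 7-letter form given above. They occurred at 0 of the 41 summits, against 14.4% of all nuclear pooled summits. The word GTAAACA alone occurred at 1.03% of all summits. GAGAGA occurred at 7 of the 41, or 17.1%, against 10.8%, with 3 of those at tra-1, 2 at pop-1 and 1 each at sys-1 and gon-1. The GATA motif occurred at 8, or 19.5%, against 16.2%. The TCF words CTTTGAA and CTTTGAT occurred at 1, in an intron of tra-1, or 2.44%, against 3.71%, and GGGCGG occurred at 0, against 4.09%. The motifs are unequal in base composition, and the part of the GC content given above in these shares was not tested.

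A wider list of 72 other genes of the same pathways had a reproducible region at 7, or 9.72%, against 8.16% of all genes. The Wnt and beta-catenin list had 4 of 14. Among them lin-17, a Frizzled receptor gene, had an intronic summit with a signal of 107, and lit-1, a Nemo-like kinase gene, had an intronic summit with 91.3, 364 bp from the start of the non-coding RNA gene W06F12.7. The corepressor gene unc-37 had a summit 322 bp upstream with a signal of 94.5. The summit counted at hmp-2, a beta-catenin gene of cell adhesion, had a signal of 200 and was nearer to the start of K05C4.7, 242 bp away. The lit-1 region had no matched summit in replicate 1 and rank 380 in replicate 2. In replicates 1 and 2 the ranks were 3299 and 318 at unc-37, 385 and 700 at lin-17, and 73 and 333 at hmp-2.

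The Notch list had 1 of 10, apx-1, and the gonad cell cycle list had 1 of 5, cye-1, the cyclin E gene, whose summit with a signal of 215 was 1 bp from a tRNA gene start (WBGene00022955). The morphogenesis and matrix list had 1 of 17, the integrin beta gene pat-3, with a signal of 152 and a summit nearer to the start of ccdc-47, at 163 bp. Neither the 12 other gonad transcription factor genes nor the 14 other sex determination genes had a reproducible region. Shared regions outside the reproducible list were present at 42 of the 72 genes, or 58.3%, against 43.1% of all genes. By list these were 7 of 10 for Notch, 6 of 14 for Wnt, 5 of 5 for the cell cycle, 11 of 17 for matrix, 7 of 12 for transcription factors and 6 of 14 for sex determination.

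Close to the rule's limit of 5 kb, a pooled region at lag-2 was counted at 4958 bp with a signal of 33.6, 64 bp from the start of Y73C8B.3. The nearest one left out at lag-2 lay at 5466 bp with a signal of 26.1. At the limit of the reproducible list, the lowest signal within it was 89.13 and the highest outside it in the pooled list was 89.12.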

How the data were processed

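ChIP-seq region lists in ce11 were used: each replicate, both pooled, and the reproducible list, for which the authors applied the irreproducible discovery rate (IDR) to the pooled list, per the deposited descriptions. The sources used here do not name the aligner, peak caller or thresholds. Ranks used the deposited signal (column 7), the authors' own value. The authors' −log10 q-value (column 9) was used in 1 stricter alternative and is given for the shared regions outside the reproducible list. Read counts are not in these lists, and depth is unknown.

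Genes came from Ensembl release 115 and sequences from RefSeq WBcel235, which is ce11. Summits matched between lists within 100 bp. Motifs were searched within 50 bp, on both strands. A 5' end is that of the annotated gene, and distances to a gene's start use it alone. Further starts annotated inside ehn-3, gon-1, sys-1 and ceh-22 were not used. No test was made, since there is 1 group. Wilson intervals (95%) cover counting error alone. Python 3.11.15, NumPy 2.4.6, pandas 2.3.3, SciPy 1.17.1, Biopython 1.88 and Matplotlib 3.10.9 were used, and counting was tested on simulated data.

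The genes, the pathway lists and the motifs were chosen with earlier results of these data known. All 9 genes are named, with their reproducible regions, their highest region in each list and shared regions in the upper 10% of the pooled list. Pathway genes are named where they had a reproducible region. At the 9 genes, protein-coding neighbours are named where their start was nearer to a described summit in the window. Other neighbours are named for some regions only. The srpr copies and the other regions described were chosen after their values were seen.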

Additional observations from a re-analysis of the deposited data

How the results depend on the processing

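Distance, matching and thresholds each moved counts. Within 2 kb of the 5' end, reproducible regions numbered 2 at 1 gene and density was 0.404 per kb. Within 10 kb there were 75 pooled regions and 15 shared regions outside the reproducible list. To leave out 1 replicate, the other replicate's own list was used in place of the pooled list. Its highest 767 regions by signal took the place of the reproducible list, so IDR was not remade. This gave 1 to 4 of the highest regions at 1 to 2 genes, and 28 to 38 regions of the whole list, or 0.221 to 0.300 per kb. The low values of 1 region at 1 gene came without replicate 1. The values of 28 regions and 0.221 per kb came without replicate 2. Counts of shared regions need both replicates and had no value there. With overlapping intervals as a match, 16 regions were shared, and with the upper 50% of each replicate list, 3 regions at 2 genes. The upper 50% of each list by signal left 1 reproducible region at 1 gene and 20 pooled regions, and a −log10 q-value of 2 or more left 3 pooled regions. With only regions whose nearest annotated start, coding or not, was that of the gonad gene, an alternative chosen after seeing the data, there were 0 reproducible regions at 0 genes, 18 pooled regions and 0.142 per kb. The number of genes with a shared region was within 1.5 times of 4 in 7 of 8 alternatives, and the number of shared regions was within 1.5 times of 7 in 5 of 8. By the same measure, reproducible regions, genes with one and pooled regions each held in only 4 of 8. Density stayed within the replicate standard deviation of 0.0559 per kb in 3 of 6. No paired analysis was possible because there is 1 group. Depth is unknown, and a gene without a region here is not shown to be unbound.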
